A study of Mus musculus with 14 samples.

Results

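The comparison described here is the spleen of AcB55 mice against the spleen of A/J mice. Its members were the arrays whose RNA source is the AcB55 spleen, which are 6 of the 14 arrays of the series. AcB55 is a recombinant congenic strain, an inbred line that carries segments of the C57BL/6 genome on a background of A/J. A/J, the main parent, was the other channel of every array, so each value is a log2 ratio of AcB55 to A/J on the same array. The other 8 arrays hold the sister strain AcB61, also set against A/J, and are used only where AcB61 is named. The title of the series names resistance to malaria, and infection, age, sex, treatment and the number of mice per array are not stated in the labels. Whether the AcB55 arrays share mice or RNA pools is not stated either, so they may come from fewer samples than arrays. The direction is likely AcB55 over A/J, since the labels list AcB55 first and A/J second on all 6 arrays. The dye of each channel and the base of the logarithm are not stated, and base 2 was assumed.

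The mouse spleen filters aged red cells from the blood, holds lymphocytes in its white pulp, and in mice remains a site where red cells are made. Red cell precursors divide quickly, load iron and make haem, and build a membrane carrying the anion exchanger and blood group proteins before they lose their nucleus. Macrophages of the red pulp engulf old red cells and expelled nuclei. Genetic work on this strain is known for a defect of Pklr, the pyruvate kinase of red cells, but no tested feature carried that name alone and Pklr was not analysed here.

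Each AcB55 array gave 14389 to 14515 values, with array medians between -0.020 and 0.0050. The spread of values over an array, as SD, ran from 0.24 on replicate 3 to 0.33 on replicate 6, where replicates are numbered in order of deposit. A feature was tested when at least 3 AcB55 arrays had a value, which gave 13045 features and 6286 genes with a name of their own. Of the named genes, 726 were higher and 1029 lower in AcB55 (limma, Benjamini-Hochberg adjusted p under 0.05). These are 11.5 and 16.4 percent of all named genes, and together 27.9 percent, the background against which each gene list is read below. Most differences were small. The median size of a gene mean was 0.10, beside a median SD over arrays of 0.14, and 104 genes higher and 95 lower also differed by at least 1.5-fold. Of 6038 genes measured on all 6 arrays, 760 were positive and 1068 negative on every array. The p-values treat the arrays as independent and measure how far they scatter, which may be technical in part. A/J was never set against A/J, so how much variation among A/J mice the p-values take in is not known. In whole spleen, fewer cells of a type and less RNA per cell cannot be told apart.

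Some AcB55 arrays departed from the feature means together. After the mean of each feature was removed, replicates 1 and 2 had r = 0.242 over 13816 features, and replicates 5 and 6 had r = 0.232. For replicates 1 and 6, r was -0.586. A first component held 41.2 percent of this variance, with replicates 1 and 2 at one end and replicates 5 and 6 at the other. A second held 23.2 percent and set replicates 1, 4 and 5 against 2, 3 and 6. Removing the mean makes such correlations negative on average even for independent arrays, so r is not read against 0. It also leaves fewer components than arrays, which raises the share of each. These values are descriptions across features that share an array, and what sets the arrays apart was not tested.

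Among the 15 genes furthest above A/J, Mki67, Ccna2, Nusap1 and Rrm2 belong to the lists of mitosis and replication, and Slc4a1 and Rhd to that of the red cell membrane. In what follows, 3 values given together are the lowest, the median and the highest AcB55 array. Mki67, which coats chromosomes in dividing cells and marks cycling cells, read 1.50, 1.85 and 2.20 (1.83 ± 0.25, mean ± SD, n = 6 unless stated, adjusted p = 8.88e-07). Its lowest array lay above the mean of every other named gene. Tmcc2, a membrane protein with coiled coils, read 0.93, 1.54 and 1.79 (1.43 ± 0.33), lowest on replicate 2. Slc4a1, which swaps chloride and bicarbonate across the red cell membrane, read 0.84, 1.34 and 1.65 on the 5 arrays with a value (1.28 ± 0.31, n = 5, adjusted p = 1.65e-05). Its relative Slc4a2, an anion exchanger of many tissues, read 0.75, 1.32 and 1.71 (1.22 ± 0.37). Both exchangers were lower on replicate 2 than their medians. Rhd, a blood group protein of the red cell membrane, read 0.67, 1.15 and 1.53 (1.13 ± 0.31). Prex2, an activator of Rac, read 0.59, 1.02 and 1.92 (n = 5), and had the widest spread of the 15 highest genes, with 0.59 on replicate 1 and 1.92 on replicate 4. Gm5088, a predicted gene, spread almost as far, from 0.46 on replicate 2 to 1.70 on replicate 4.

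Other genes of this group were held within narrow limits. Nxpe2 read 0.92, 1.19 and 1.26, Nusap1, a spindle protein, read 0.87, 1.02 and 1.08, and Tfdp1, the partner of E2F factors, read 0.81, 0.93 and 1.13. Pabpc4, which binds poly(A) tails, read 0.73, 1.07 and 1.29 (1.04 ± 0.18). Exosc9, a subunit of the RNA exosome, read 0.70, 0.94 and 1.31, highest on replicate 1. Mrps25, a protein of the mitochondrial ribosome, split the arrays: it read 0.41 and 0.46 on replicates 1 and 2 and 1.11 to 1.52 on the other 4 arrays. The values of the 15 highest and 15 lowest genes are plotted by array.

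**Figure D1:**
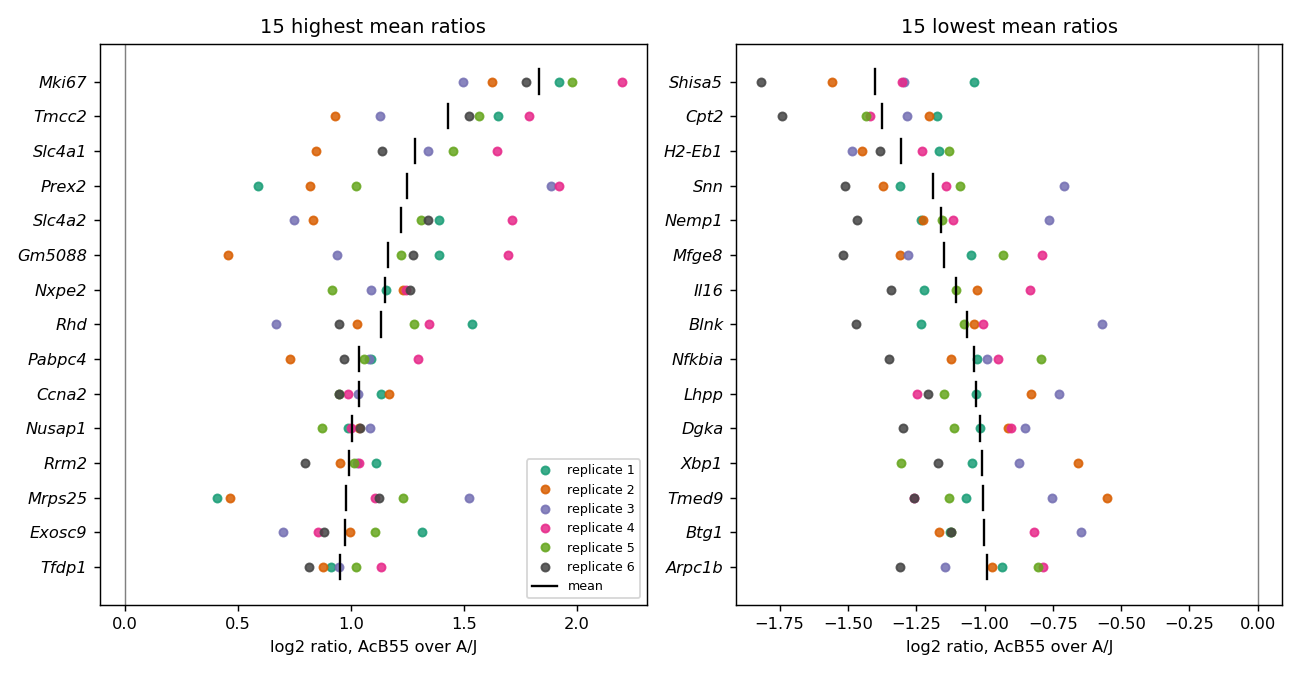
Log2 ratio of AcB55 to A/J (x axis) for 15 genes with high and 15 with low means (y axis). Each array is a point coloured by replicate, with a bar at the mean. Shown are the highest and lowest means among genes that passed, were measured on at least 5 arrays and kept 1 sign. No point crosses 0, which the choice of these genes required; Mki67 lies furthest right with a mean of 1.83 and Shisa5 furthest left with -1.40.

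Genes that copy DNA were higher in AcB55. Of 40 measured genes, 27 rose, 1 fell and 12 did not pass (median of the gene means 0.35), beside 11.5 percent of all named genes higher. The replicative helicase, a ring of 6 subunits, was measured whole. Its subunits Mcm2 (0.89 ± 0.20), Mcm3 (0.83 ± 0.16), Mcm5 (0.75 ± 0.28), Mcm6 (0.58 ± 0.16) and Mcm7 (0.54 ± 0.26) rose, while Mcm4 (0.14 ± 0.089) did not pass the test (adjusted p = 0.0818). Mcm2 read 0.54, 0.92 and 1.11 and Mcm3 read 0.65, 0.80 and 1.07, so no array of either fell to 0. Cdc6 (0.81 ± 0.22) and Cdt1 (0.50 ± 0.20), which load the ring onto DNA, rose, as did Cdc45 (0.51 ± 0.24), which joins the loaded ring later. Gmnn, geminin, which holds Cdt1 in check, was the gene of the list that fell, reading -0.75, -0.40 and -0.17 (-0.42 ± 0.20, adjusted p = 0.00145).

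Both subunits of ribonucleotide reductase, which makes the building blocks of DNA, rose. Rrm2 read 0.80, 1.02 and 1.11 (0.99 ± 0.11, adjusted p = 1.3e-06), and Rrm1 read 0.65, 0.86 and 1.04 (0.87 ± 0.15). Tk1, thymidine kinase, rose (0.65 ± 0.24), whereas Tyms, thymidylate synthase, had a mean of -0.18 ± 0.16 and did not pass (adjusted p = 0.0594). Pcna, the sliding clamp, rose (0.75 ± 0.23). Of the complex that loads the clamp, Rfc4 rose (0.38 ± 0.12), while Rfc1, Rfc2, Rfc3 and Rfc5 had means from -0.12 to 0.19 and did not pass. Without replicates 1 and 2, where this list was highest, 24 of the 40 genes were higher.

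Most genes of mitosis rose. Of 52 measured genes, 44 rose, 1 fell and 7 did not pass (median of the gene means 0.45). Ccna2, cyclin A2 of S phase and mitosis, read 0.95, 1.01 and 1.17 on the 6 arrays, and its probes had means of 1.21 and 0.86. Cyclins of the other stages rose too: Ccne1 (0.64 ± 0.26, n = 5) of entry into S phase, Ccnb2 (0.57 ± 0.26) of mitosis and Ccnf (0.71 ± 0.24). Condensin, which compacts chromosomes, was measured by several subunits. Smc4 (0.73 ± 0.084), Smc2 (0.37 ± 0.079), Ncapd2 (0.70 ± 0.27) and Ncaph (0.46 ± 0.26) rose, while Ncapg (0.18 ± 0.23) did not pass. The probes of Smc2 disagreed, with means of 0.75 and -0.014. All 3 probes of Smc4 were positive, with means of 0.82, 0.75 and 0.63.

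The exit from mitosis was represented by Cdc20, an activator of the anaphase-promoting complex, which read 0.57, 0.73 and 1.02 (0.75 ± 0.18, adjusted p = 2.05e-05). The kinase Plk1 (0.69 ± 0.34), the chromosomal passenger proteins Incenp (0.71 ± 0.29) and Birc5 (0.59 ± 0.24), and the kinase Aurka (0.47 ± 0.28) rose. The kinetochore proteins Ndc80 (0.52 ± 0.22) and Nuf2 (0.36 ± 0.26) and the checkpoint protein Mad2l1 (0.61 ± 0.13) rose. The motors Kif11 (0.077 ± 0.18), Kif20a (0.13 ± 0.24, n = 5) and Kif18a (0.19 ± 0.20) did not pass. Cks1b, a partner of cyclin-dependent kinases, fell (-0.44 ± 0.19), opposite to its relative Cks2 (0.63 ± 0.21). The list mean was lowest on replicate 3, at 0.33. Without replicates 1 and 2, 36 of the 52 genes were higher.

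Promoters of 3 genes that rose are shown because most genes of the mitosis and replication lists rose. They span 250 bases before to 50 bases after the start of the gene, from RefSeq on GRCm38.p6, written 5′ to 3′ on the strand of the gene. Capitals mark matches on either strand to any of 4 motifs, and overlapping matches run together. TTTGAA is the core of the cell cycle homology region. CCAAT is bound by the factor NF-Y. TTCCCGC and the related TTGGCGC are forms of the E2F site.
Mki67, chr7:135716330-135716629, minus strand: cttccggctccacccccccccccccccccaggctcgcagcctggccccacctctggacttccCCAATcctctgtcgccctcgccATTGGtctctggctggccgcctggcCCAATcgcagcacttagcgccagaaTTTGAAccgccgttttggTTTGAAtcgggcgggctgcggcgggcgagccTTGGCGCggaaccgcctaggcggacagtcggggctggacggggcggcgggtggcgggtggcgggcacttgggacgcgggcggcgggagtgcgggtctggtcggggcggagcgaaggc
Cdc20, chr4:118437294-118437593, minus strand: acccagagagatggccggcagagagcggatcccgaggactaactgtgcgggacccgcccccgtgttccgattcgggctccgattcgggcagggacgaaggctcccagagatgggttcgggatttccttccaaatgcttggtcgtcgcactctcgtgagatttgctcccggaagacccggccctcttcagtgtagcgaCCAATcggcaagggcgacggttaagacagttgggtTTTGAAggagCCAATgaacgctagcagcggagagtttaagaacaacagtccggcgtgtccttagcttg
Mcm3, chr1:20820263-20820562, minus strand: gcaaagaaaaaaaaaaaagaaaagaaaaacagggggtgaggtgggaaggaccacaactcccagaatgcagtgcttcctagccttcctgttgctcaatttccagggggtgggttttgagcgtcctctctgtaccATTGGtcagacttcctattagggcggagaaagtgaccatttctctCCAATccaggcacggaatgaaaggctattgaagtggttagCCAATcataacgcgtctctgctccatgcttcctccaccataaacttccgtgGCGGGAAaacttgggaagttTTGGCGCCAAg

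TTTGAA was found in 28 of 44 mitosis promoters (63.6 percent), against 12 percent of 5140 tested genes with a promoter and 18.1 percent of all 27025 promoters of this length. In the replication list it stood in 5 of 34. That list had TTCCCGC in 11 of 34 and TTGGCGC in 9 of 34, or 32.4 and 26.5 percent, beside 9.16 and 4.88 percent of tested genes and 4.66 and 2.54 percent of all promoters. CCAAT was in 68.2 and 67.7 percent of the mitosis and replication lists, beside 37.9 percent of all promoters. 2 other motifs were searched and are not capitalised above. AGATAA, a site of GATA factors, was in 2 of 7 promoters of the list of red cell precursors and in 11.4 percent of all promoters. CCNCNCCC, a site of Kruppel-like factors, was in 57.1 percent of the same list, below the 69.9 percent of tested genes, and in 49.1 percent of all promoters. These matches describe letters only.

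Most genes of haem synthesis rose. Of 13 measured genes, 11 rose, 0 fell and 2 did not pass (median of the gene means 0.43). Abcb10, which sits in the inner membrane of mitochondria, read 0.72, 0.80 and 1.09 (0.85 ± 0.14), with both probes near the same mean (0.87 and 0.83). Alas2, the first enzyme of the path in red cell precursors, rose less (0.41 ± 0.33, adjusted p = 0.0122), and its housekeeping counterpart Alas1 had a mean of 0.034 ± 0.15 (adjusted p = 0.761). Alas2 lost its call without replicate 5 (adjusted p = 0.0533) and without replicates 1 and 2 (adjusted p = 0.1). The later enzymes Alad (0.50 ± 0.31), Uros (0.70 ± 0.21), Urod (0.58 ± 0.23) and Ppox (0.71 ± 0.32) rose, while Cpox (0.19 ± 0.20), which acts between Urod and Ppox, did not pass (adjusted p = 0.085). Ppox read 0.30, 0.74 and 1.22 and Uros read 0.49, 0.67 and 1.05. Of the iron and haem precursor carriers, Tmem14c (0.43 ± 0.24) and the mitoferrin Slc25a37 (0.29 ± 0.14) rose, but the probes of Slc25a37 went opposite ways, with means of -0.23 and 0.81, so its average describes neither. Without replicates 1 and 2, 8 of the 13 were higher.

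The red cell surface was mixed. Of 9 measured genes, 4 rose, 1 fell and 4 did not pass (median of the gene means 0.15). Slc4a1 and Rhd rose by far the most, Bsg (0.46 ± 0.13), a carrier of a blood group, and Add1 (0.26 ± 0.16), which joins spectrin to actin, rose less, and Ermap (-0.24 ± 0.12), an erythroid membrane protein, fell. Add1 lost its call without replicates 1 and 2 and in a fit over both strains (adjusted p up to 0.139). The fall of Ermap was deepest on replicate 1 (-0.48), with the other 5 arrays between -0.22 and -0.15. Among enzymes of red cells, of 14 measured genes, 8 rose, 0 fell and 6 did not pass (median of the gene means 0.34). Cat, catalase, read 0.60, 0.87 and 0.88, lowest on replicate 5. Bpgm, which makes bisphosphoglycerate, read 0.38, 0.88 and 1.35 (0.81 ± 0.37). Nt5c3, a nucleotidase needed for red cell maturation, rose (0.56 ± 0.20), as did Gclc (0.61 ± 0.18) and Gsr (0.42 ± 0.12) of glutathione metabolism. The antioxidant enzymes Gpx1 (0.016 ± 0.13), Gpx4 (-0.028 ± 0.33) and Sod1 (-0.086 ± 0.29) did not pass. On replicates 1, 5 and 6, Gpx1 read 0.198, 0.124 and -0.080, the value shared by the alpha globin spots described below. What this means for its result was not tested.

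Among regulators, Bcl2l1, which keeps late red cell precursors alive, read 0.42, 0.86 and 1.18 (0.83 ± 0.28). Tfrc, the transferrin receptor, read 0.47, 0.64 and 0.91, though its probes differed in size with means of 0.93 and 0.42. Bnip3l, which clears mitochondria from maturing red cells, rose on average (0.39 ± 0.18). In iron handling, 1 of 9 genes rose and 0 fell. It was Hmox1, haem oxygenase, which breaks haem down (0.88 ± 0.27, n = 5). The ferritin genes Fth1 (0.11 ± 0.092) and Ftl1 (0.021 ± 0.11) and the iron exporter Slc40a1 (-0.069 ± 0.24) did not pass. A probe of Ftl1 read 0.196, -0.0996, 0.128 and -0.0796 on replicates 1, 2, 5 and 6, close to the alpha globin values given below.

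Globin spots carried little information. Hba-a1, adult alpha globin, has 7 spots, and these agreed on each array to within 0.00474. Their medians on replicates 1 to 6 were 0.198, -0.103, -0.218, 0.00102, 0.124 and -0.0801, so the mean was near 0 (-0.013 ± 0.15). Of other spots, 43 lay within 0.002 of that value on at least 4 of the 6 arrays. Among those with a name were Hbb-y, Rplp1, Grn and Add3. Signal intensities were not used here, so whether such spots had reached the ceiling of the scanner was not tested. Hba-x, an embryonic alpha-like globin, had a mean of 0.40 ± 0.44 (adjusted p = 0.0453), and lost the call under 8 alternatives, with replicate 1, 2, 5 or 6 left out among them (adjusted p up to 0.219). Eif2ak1, the kinase that halts globin translation when haem is short, rose (0.33 ± 0.17).

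Most cytosolic ribosomal protein genes were lower. Of 60 measured genes, 1 rose, 44 fell and 15 did not pass (median of the gene means -0.32), beside 16.4 percent of named genes lower. Rpl38 read -0.98, -0.85 and -0.15 (-0.75 ± 0.32), and both of its probes were low (means -0.72 and -0.77). Rps20 read -1.09, -0.68 and -0.092, Rpl36 read -1.04, -0.59 and -0.11, and Rps29 read -0.78, -0.70 and -0.11. On replicate 2 these genes sat closest to A/J. Rpl38 read -0.15 there and -0.98 to -0.68 on the others, and Rps29 read -0.11 against -0.78 to -0.66. The list mean was -0.10 on replicate 2 and -0.41 to -0.26 on the remaining arrays. The gene that rose was Rpl9 (0.29 ± 0.13, adjusted p = 0.00359), whose call was lost in a fit over both strains (adjusted p = 0.0697). Genes that did not pass were spread from -0.23 for Rpl39 to 0.082 for Rpl22l1, a paralog of Rpl22. Ribosomal protein genes have many near-identical copies, so which copy a cDNA spot reads is uncertain.

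**Figure D2:**
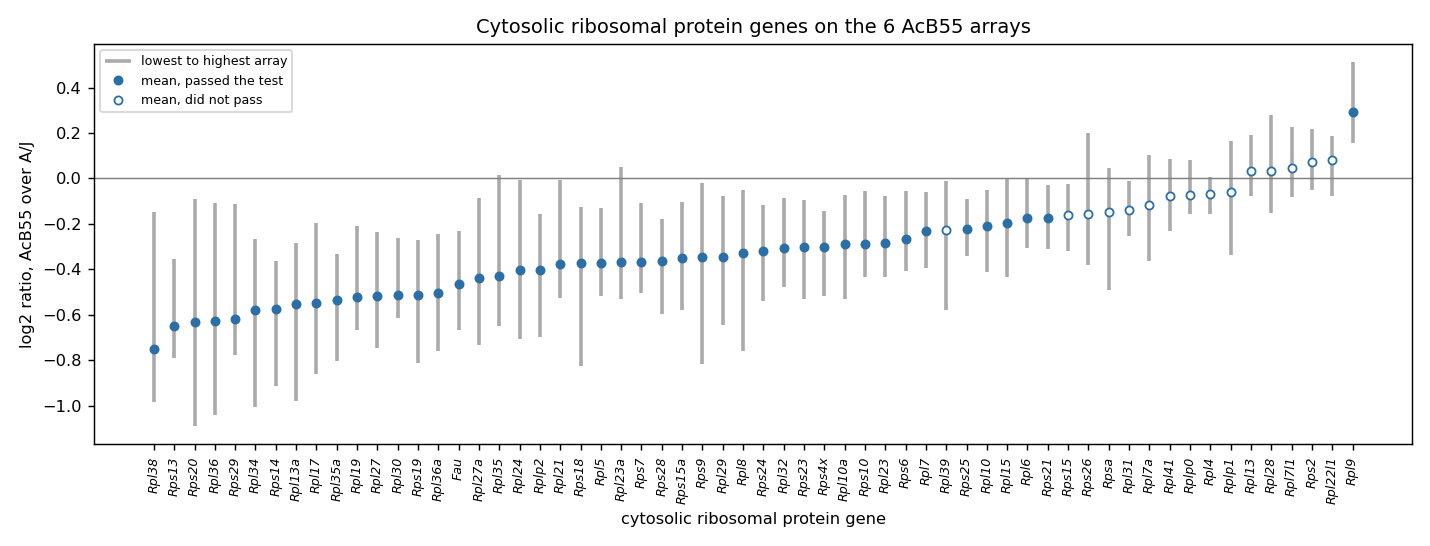
Log2 ratio of AcB55 to A/J (y axis) for 60 cytosolic ribosomal protein genes (x axis, ordered by mean). Bars run from the lowest to the highest array, filled points are means that passed the test and open points means that did not; 44 of the filled points lie below 0 and Rpl9 lies above it.

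Translation factors went both ways. Of 46 measured genes, 14 rose, 6 fell and 26 did not pass (median of the gene means 0.11). The poly(A)-binding proteins Pabpc4 and Pabpc1 (0.69 ± 0.11), Eif5a (0.70 ± 0.36), Eif2s3x (0.53 ± 0.16) and the helicase Eif4a1 (0.52 ± 0.31) rose. Eif4a1 read 0.62, 0.94 and 0.74 on replicates 1, 4 and 5 and 0.092, 0.27 and 0.44 on replicates 2, 3 and 6. Subunits of the factor Eif3 went both ways. Eif3a (0.30 ± 0.089) and Eif3c (0.33 ± 0.16) of its core rose, while Eif3f (-0.50 ± 0.20), Eif3h (-0.39 ± 0.17), Eif3k (-0.34 ± 0.25) and Eif3e (-0.22 ± 0.16) fell. Eif3e lost its call without replicate 1, 4, 5 or 6 and without replicates 1 and 2 (adjusted p up to 0.0826), and Eif3k without replicates 3 and 4 (adjusted p = 0.104). Eef1b2 (-0.43 ± 0.19), an exchange factor of elongation, also fell. Of 21 tRNA synthetases, 1 rose (Iars, 0.21 ± 0.11), 1 fell (Wars, -0.17 ± 0.12) and 19 did not pass, and the call of Wars was lost under 8 alternatives (adjusted p up to 0.217) and that of Iars under 2 (adjusted p up to 0.0736). Of mitochondrial ribosomal proteins, 3 were higher, 4 were lower and 37 did not pass of 44 (median -0.034).

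Mitochondrial energy genes shifted little as groups. Of 58 measured genes, 4 rose, 10 fell and 44 did not pass (median of the gene means -0.099). Cox7a2l, which joins respiratory complexes, read -0.93, -0.69 and -0.47 (-0.67 ± 0.17), and Ndufaf3, an assembly factor of complex I, read 0.37, 0.65 and 0.81 (0.64 ± 0.16). The core ATP synthase subunits Atp5a1 (0.44 ± 0.24) and Atp5b (0.23 ± 0.16) rose, and Atp5b lost its call under 5 alternatives, with replicate 1, 2 or 4 left out among them (adjusted p up to 0.154). The number of respiratory genes lower ranged with the arrays kept, from 5 without replicate 4 and 6 without replicate 3, 5 or 6 to 18 without replicate 2, and it was 21 without replicates 1 and 2. Cpt2, the inner membrane enzyme that passes fatty acids to oxidation, read -1.74, -1.35 and -1.17 (-1.38 ± 0.21, adjusted p = 9.83e-07). Its list otherwise held 6 genes higher, among them Cs (0.39 ± 0.13), citrate synthase, and Hadha (0.33 ± 0.15). In the same list Mdh1 (-0.46 ± 0.15), the cytosolic rather than the mitochondrial malate dehydrogenase, was lower on all 3 probes. In glycolysis Pkm, the pyruvate kinase of most tissues, fell (-0.69 ± 0.18), with probe means of -0.71 and -0.67. Pfkm (0.25 ± 0.14) rose, and Pgk1 (-0.22 ± 0.19) fell with -0.57 on replicate 6, losing its call in 6 alternatives (adjusted p up to 0.101), and Pfkm lost its call without replicates 1 and 2 (adjusted p = 0.056).

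The genes furthest below A/J included several known from immune cells. Shisa5, a membrane protein of the endoplasmic reticulum linked to apoptosis, read -1.82, -1.30 and -1.04 (n = 5, adjusted p = 8.39e-06). H2-Eb1, the beta chain of an MHC class II molecule, read -1.49, -1.30 and -1.13 (-1.31 ± 0.15). Blnk, the adaptor of the B cell receptor, read -1.47, -1.06 and -0.57, closest to 0 on replicate 3. All 3 genes were below 0 on every array with a value, which the choice of the 15 lowest genes required. Il16, a cytokine of lymphocytes, read -1.34, -1.10 and -0.83 (n = 5), and Dgka, a diacylglycerol kinase abundant in T cells, read -1.30, -0.97 and -0.85. Btg1, an antiproliferative gene of resting lymphocytes, read -1.17, -1.12 and -0.65. Xbp1, the transcription factor of plasma cells and of the unfolded protein response, read -1.31, -1.04 and -0.66 (n = 5). Nemp1 of the nuclear envelope read -1.47, -1.19 and -0.76, Lhpp, a phosphatase, read -1.25, -1.09 and -0.73, and Snn, stannin, read -1.51, -1.23 and -0.71. Tmed9, a cargo receptor, had -0.55 on replicate 2 and -1.26 on its lowest array.

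In inflammatory signalling more genes were lower than higher. In the NF-kappa-B and inflammasome list 2 rose, 6 fell and 4 did not pass of 12 (median -0.23). Nfkbia, the inhibitor that NF-kappa-B itself induces, read -1.35, -1.01 and -0.79 (-1.04 ± 0.19), and Birc3 (-0.29 ± 0.21), Traf1 (-0.37 ± 0.14) and Nfkbiz (-0.31 ± 0.12) fell, though Birc3 lost its call without replicates 1 and 2 (adjusted p = 0.1). Irak1, a kinase below the Toll-like receptors, rose (0.93 ± 0.52), reading 0.24, 0.95 and 1.63. The subunit Rela (-0.18 ± 0.18) did not pass. In the MHC list, B2m (-0.84 ± 0.33), the light chain of class I, and Psme1 (-0.73 ± 0.23), a proteasome activator, fell, H2-DMa (0.31 ± 0.15) rose, and H2-K1 (0.19 ± 0.22) and Tap2 (-0.042 ± 0.11) did not pass. Of 9 interferon response genes, 1 rose (Igtp) and 3 fell (Bst2, Irf1 and Stat2). Irf1 read -1.04, -0.67 and -0.40 and Stat2 read -0.37, -0.28 and -0.25.

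Most genes by which phagocytes take up dying cells were lower. Of 11 measured genes, 0 rose, 7 fell and 4 did not pass (median of the gene means -0.29). Mfge8, which bridges dying cells to phagocytes, read -1.52, -1.16 and -0.79 (-1.15 ± 0.27, adjusted p = 7.92e-06), and Gas6 (-0.69 ± 0.18) and its receptor Axl (-0.29 ± 0.10) fell, while the related receptor Tyro3 (0.028 ± 0.15) did not pass. The 3 chains of complement C1q fell. C1qa had -1.03, -1.06 and -1.04 on replicates 2, 3 and 6 and -0.21, -0.14 and -0.26 on replicates 1, 4 and 5, the division of arrays seen for Eif4a1. C1qb (-0.26 ± 0.19) and C1qc (-0.42 ± 0.15) spread less, and C1qb lost its call without replicate 3 and without replicates 3 and 4 (adjusted p up to 0.0713). Of 34 lysosome genes, 2 rose, 13 fell and 19 did not pass (median of the gene means -0.089). The proteases Ctsh (-0.73 ± 0.22), Ctsc (-0.46 ± 0.18) and Ctsl (-0.41 ± 0.071) fell and Ctsb (0.44 ± 0.084) and Ctsd (0.22 ± 0.16) rose, and Ctsd lost its call under 6 alternatives, with replicate 1, 2, 4 or 5 left out among them (adjusted p up to 0.174). Without replicate 5, 8 lysosome genes were lower.

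In the cytoskeleton and the stroma more genes were lower than higher, and the larger number of stroma genes did not pass. Of 59 actin and myosin genes, 5 rose, 26 fell and 28 did not pass (median of the gene means -0.14). Arpc1b, a blood cell subunit of the complex that branches actin, read -1.31, -0.95 and -0.79, and Arpc2 (-0.73 ± 0.22) and Arpc5l (-0.69 ± 0.098) of the same complex fell, whereas Arpc1a (-0.14 ± 0.11) and Arpc4 (-0.16 ± 0.10) did not pass. The severing and capping proteins Gsn (-0.93 ± 0.22) and Capg (-0.67 ± 0.33) fell. Myh10 (0.46 ± 0.28), a nonmuscle myosin, rose. Of 41 matrix and stroma genes, 0 rose, 11 fell and 30 did not pass (median of the gene means -0.13). Igfbp3 (-0.84 ± 0.40), Cxcl12 (-0.75 ± 0.18), a chemokine that holds blood cell precursors in their niche, Dcn (-0.60 ± 0.31) and Bgn (-0.53 ± 0.25) fell most. The collagens measured mostly did not pass: Col1a2 (-0.22 ± 0.21) and Col4a5 (-0.21 ± 0.15) fell, and Col3a1 (-0.14 ± 0.066) had probe means of 0.019 and -0.29. Col1a2 lost its call under 8 alternatives (adjusted p up to 0.297) and Col4a5 under 5 (adjusted p up to 0.0933).

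Among genes of folding in the endoplasmic reticulum more were lower than higher. Of 23 measured genes, 2 rose, 10 fell and 11 did not pass (median of the gene means -0.10). Syvn1 (-0.47 ± 0.12), Edem1 (-0.32 ± 0.13), Dnajb9 (-0.51 ± 0.15, n = 5) and Pdia6 (-0.42 ± 0.19) fell, and the chaperone Hspa5 (-0.083 ± 0.10) did not pass. Canx (0.32 ± 0.078) and Atf4 (0.28 ± 0.096) rose. Canx rested on 1 of 3 probes (means 0.099, -0.066 and 0.914) and lost its call with the median of probes (adjusted p = 0.167). CCAAT stood in 17 of 20 promoters of this list. The list mean was -0.30 on replicate 6 and -0.17 to -0.12 elsewhere. Cytosolic chaperones had 10 higher, 6 lower and 38 not passed of 54. Hsp90aa1 read 0.56, 0.73 and 0.81 and was positive on each of its 5 probes (means from 0.60 to 0.83), and Hspa8 (0.40 ± 0.12) and Dnajb1 (0.39 ± 0.13) rose.

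Broader lists lay closer to the background than the mitosis or cytosolic ribosomal protein lists, with exceptions by gene. For the ubiquitin, chromatin, RNA processing and solute carrier lists, 20.4, 21.25, 20.2 and 18.1 percent were higher, beside 11.5 percent of named genes. In the same order 11.8, 17.5, 7.3 and 8.4 percent were lower, beside 16.4 percent. Of 93 ubiquitin genes 19 rose and 11 fell. Ube2o (0.86 ± 0.38), which tags surplus globin and ribosomal proteins in maturing red cells, and Ube2h (0.85 ± 0.17), abundant in the same cells, were highest, with Fbxo5 (0.73 ± 0.072), an inhibitor of the anaphase-promoting complex. Usp33 (-0.63 ± 0.14) was lowest. The proteasome had 3 higher, 3 lower and 31 not passed of 37. The small polyamine list lay further out, with 4 of 7 genes higher (57.1 percent, beside 11.5 percent of named genes). Odc1 (0.74 ± 0.17) and Azin1 (0.80 ± 0.14) were highest in it, and Sat1 (-0.71 ± 0.16), which marks polyamines for breakdown, fell. Of 80 chromatin genes 17 rose and 14 fell, from Hmgb2 (0.84 ± 0.15) of dividing cells to Chd3 (-0.70 ± 0.34), which read -1.36 on replicate 6. The 14 became 7 without replicate 1 or 5, 8 without replicate 6 and 9 without replicate 2. Of 109 RNA processing genes 22 rose and 8 fell, and the 22 became 12 without replicate 4 and 14 without replicate 5.

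Solute carriers counted 15 higher and 7 lower of 83, among them the nucleoside carrier Slc29a1 (0.58 ± 0.32) and the amino acid carrier Slc7a6 (0.62 ± 0.24), higher, and the sugar carrier Slc50a1 (-0.87 ± 0.16), lower. Of 155 vesicle traffic genes 11 rose and 30 fell, with Rab6a (0.63 ± 0.27) and clathrin heavy chain Cltc (0.59 ± 0.16) highest among those that passed and the syntaxin Stx4a (-0.48 ± 0.16) lowest. The 30 became 17 without replicate 4 and 19 without replicate 5. Of 24 apoptosis genes 3 rose and 5 fell, including Mcl1 (-0.44 ± 0.23), opposite to its relative Bcl2l1.

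**Figure D3:**
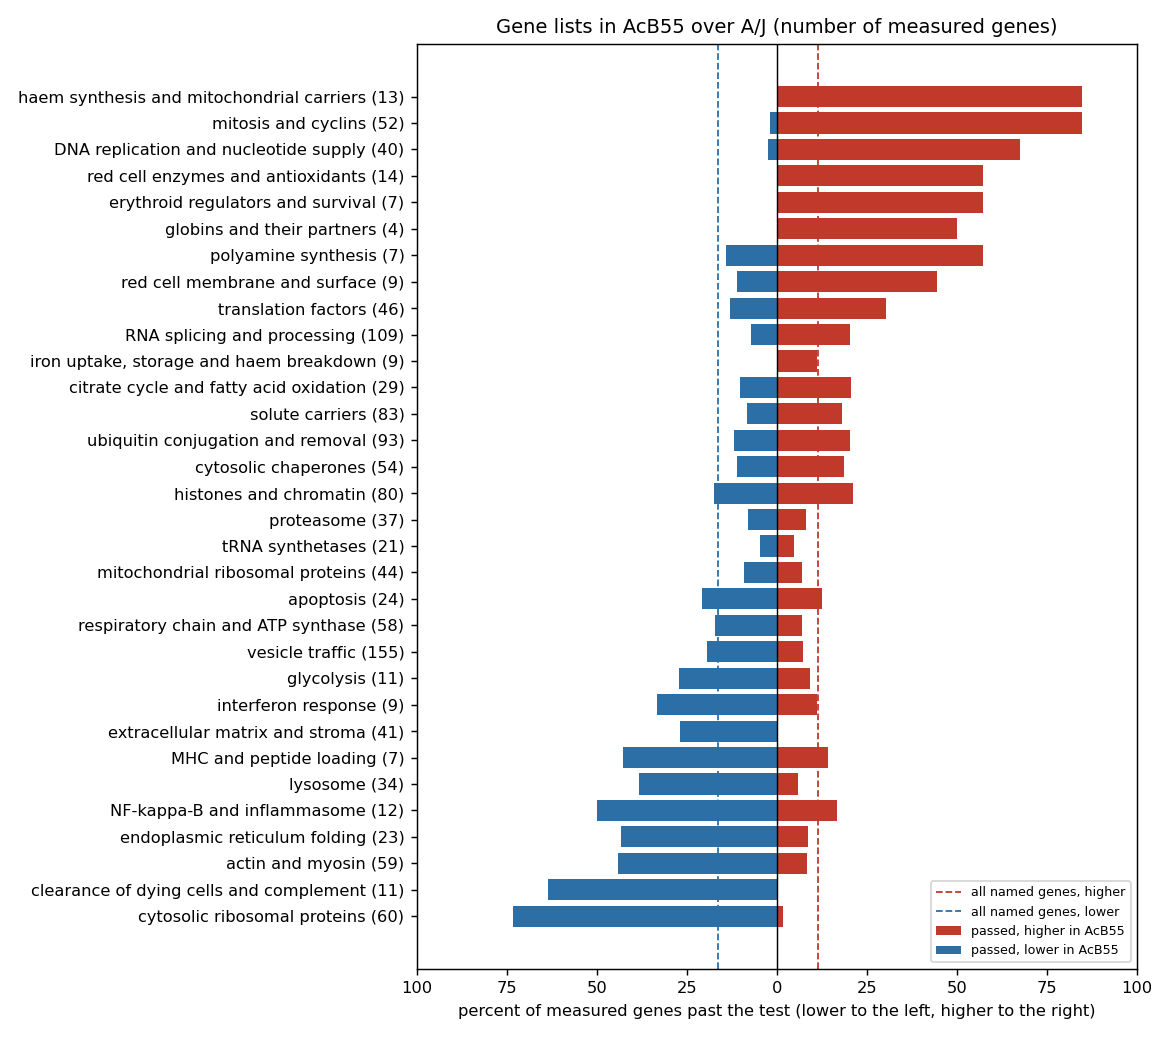
Percent of measured genes that passed the test in each list, higher in AcB55 to the right and lower to the left (x axis, percent; y axis, list with its number of measured genes). Dashed lines mark the shares over all named genes, 11.5 percent higher and 16.4 percent lower; mitosis (84.6 percent higher) and cytosolic ribosomal proteins (73.3 percent lower) lie far beyond them, and the proteasome does not reach them.

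Markers of the cells a spleen can hold were measured unevenly. Red cell precursor markers had 6 higher, 1 lower and 2 not passed of 9. B cells were represented by Blnk alone and T and NK cells by Satb1 alone (-0.18 ± 0.14), so neither list describes its cell type. Of plasma cell genes, Xbp1, Creld2 (-0.35 ± 0.14) and Sdc1 (-0.19 ± 0.073) fell. The call of Satb1 was lost under 10 alternatives (adjusted p up to 0.174) and that of Sdc1 under 4 (adjusted p up to 0.0866). Of 9 macrophage and dendritic cell genes 1 rose and 5 fell. The lower ones were C1qa, C1qb, C1qc, Ctsl and Lyz2 (-0.20 ± 0.13), of which Lyz2 lost its call under 5 alternatives (adjusted p up to 0.0901) and C1qb under 2, while Spic (-0.10 ± 0.18), the regulator of red pulp macrophages, Fcgr1 (0.0086 ± 0.16, n = 5) and Fcgr3 (-0.12 ± 0.12) did not pass. Of 8 endothelial and stromal markers 5 fell and 0 rose.

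Of 4 measured granulocyte genes, S100a9, Lcn2 and Ltf were high on replicates 1 and 2, while Hdc read 0.044 and -0.092 there. S100a9 (0.59 ± 0.89), Lcn2 (0.65 ± 0.81) and Ltf (0.46 ± 0.70) did not pass, and the mean of the 4 granulocyte genes was 1.05 and 1.31 on replicates 1 and 2 and -0.045 to 0.15 on the rest. Mitosis also had its highest means on replicates 1 and 2 (0.65 and 0.68, against 0.33 to 0.41), as did replication (0.55 and 0.50, against 0.26 to 0.34), haem synthesis (0.68 on each, against 0.24 to 0.42) and red cell enzymes (0.55 and 0.53, against 0.17 to 0.28). The red cell membrane list did not follow, at 0.31 and 0.34 against 0.26 to 0.45. The part of granulocytes in these lists was not tested. All 4 of the other arrays kept positive means for the 5 lists named. Cpa1, a digestive enzyme of the pancreas, which lies against the spleen, read 2.37 on replicate 1 and -3.58 to -1.19 on replicates 3 to 6, with no value on replicate 2.

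**Figure D4:**
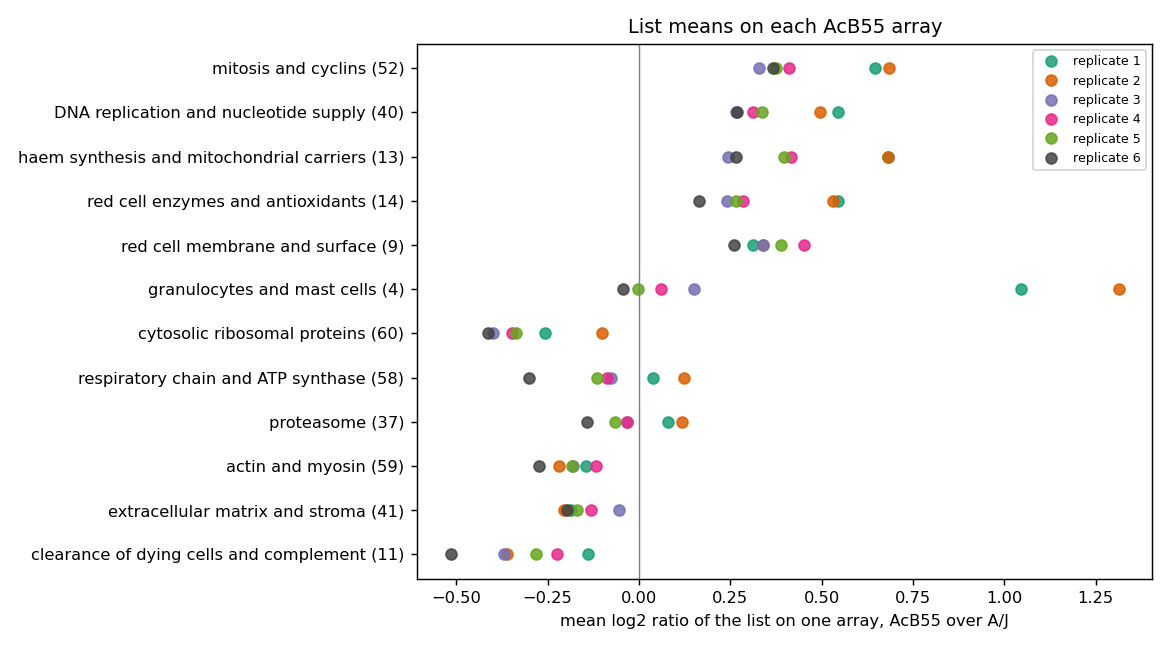
Mean log2 ratio of AcB55 to A/J over the genes of a list on a single array (x axis), a point per replicate, for 12 lists (y axis, with the number of measured genes). Granulocyte genes lie at 1.05 and 1.31 on replicates 1 and 2 and near 0 on the other arrays, while the mitosis list stays at 0.33 or above on all 6.

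Set beside AcB61, which was measured against the same parent, AcB55 differed in 655 named genes, 10.4 percent of those tested, of which 427 (6.79 percent) were higher and 228 (3.63 percent) lower in AcB61. Over all features, 690 (5.29 percent) were higher and 911 (6.98 percent) lower in AcB61. The first count fell to 419, 377 and 333 without AcB55 replicate 4, 5 or 6 and to 434 without AcB61 replicate 1, and the second to 547 and 521 without AcB55 replicate 5 or 6. Both comparisons rest on A/J, so their values are given side by side and the difference itself was tested. Mki67 was 1.83 ± 0.25 in AcB55 and 0.82 ± 0.20 in AcB61 (difference -1.01, adjusted p = 4.33e-05). Cpt2 was -1.38 ± 0.21 and -0.016 ± 0.086 (difference 1.36, adjusted p = 5.23e-08). Nemp1 was -1.16 ± 0.23 and 0.024 ± 0.20 (adjusted p = 4.86e-06), and Lhpp -1.03 ± 0.21 and 0.012 ± 0.083 (adjusted p = 2.07e-06). For these 4 genes the strains differed beyond their spread. The 4 were chosen for extreme AcB55 means, a choice that favours such a difference. H2-Eb1 was -1.31 ± 0.15 and -1.18 ± 0.36 (difference 0.13, adjusted p = 0.595), and Slc4a1 1.28 ± 0.31, n = 5 and 1.07 ± 0.23 (difference -0.21, adjusted p = 0.32), where no difference was detected with this number of arrays. Of 60 cytosolic ribosomal proteins, 26 differed and each of these was higher in AcB61, where the median of the gene means was -0.021 against -0.32 in AcB55. Of the 40 replication genes 5 differed, 1 higher and 4 lower in AcB61, with medians of 0.27 in AcB61 and 0.35 in AcB55. Alas2 was 0.41 ± 0.33 in AcB55 and 0.92 ± 0.23 in AcB61 (adjusted p = 0.0193).

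**Figure D5:**
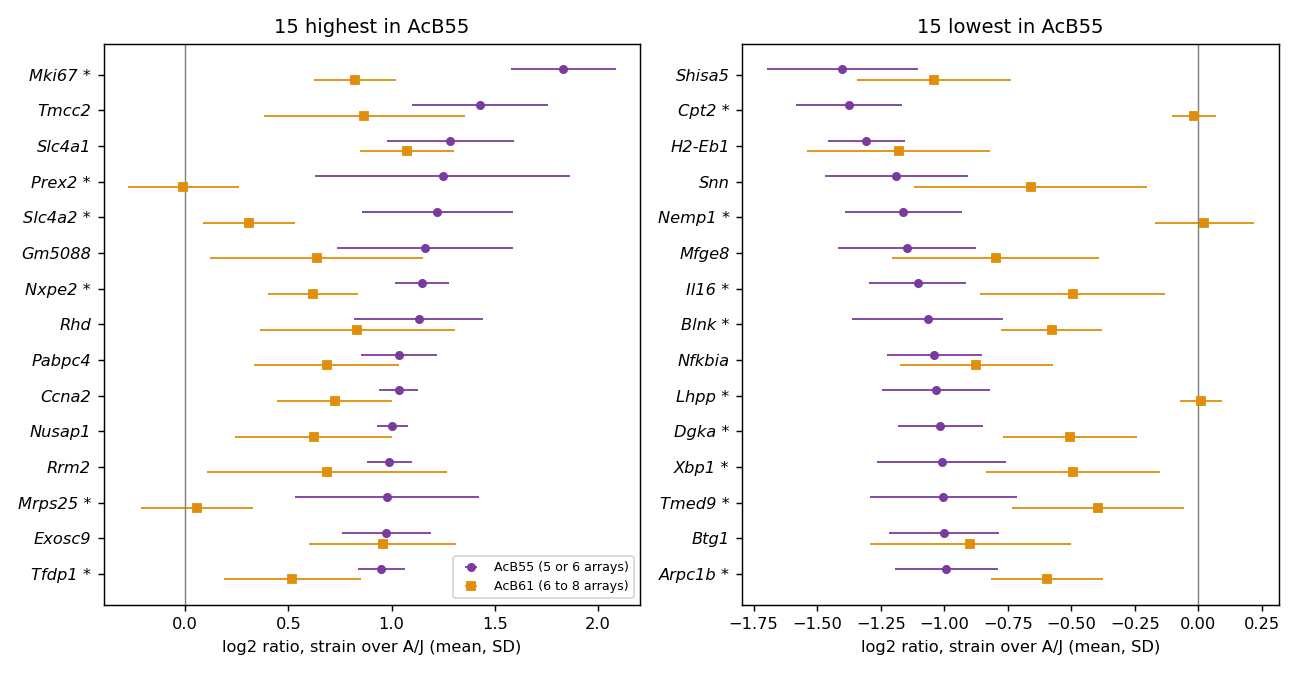
Mean log2 ratio of each strain to A/J with SD over arrays (x axis) for 15 genes high and 15 low in AcB55 (y axis). These are the highest and lowest among genes that passed, were measured on at least 5 AcB55 arrays and kept 1 sign. An asterisk marks genes whose difference between strains passed the test. Mki67 lies at 1.83 in AcB55 and 0.82 in AcB61, and Cpt2 at -1.38 and -0.016; the genes were chosen by their AcB55 values.

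A congenic strain differs from its parent in blocks of the genome, so the places of the changed genes were listed from the order of genes in RefSeq (GRCm38.p6). Of 6281 placed genes, 199 (3.17 percent) passed the test with at least a 1.5-fold difference. The share was highest on chromosome 8 (22 of 326, 6.75 percent) and chromosome 6 (17 of 308, 5.52 percent). Among 6261 pairs of tested neighbours, 13 had both genes past these limits, 11 in the same direction and 2 in opposite directions. How many such pairs chance would give was not worked out. The pair Exosc9 (0.97 ± 0.22) and Ccna2 (1.03 ± 0.094) on chromosome 3 overlap, so a cDNA spot of either may read the other where strand is not resolved. Smc4 (0.73 ± 0.084) and Trim59 (0.71 ± 0.24), also on chromosome 3, Hmox1 (0.88 ± 0.27) and Mcm5 (0.75 ± 0.28) on chromosome 8, and Igfbp3 (-0.84 ± 0.40) and Tns3 (-0.73 ± 0.20) on chromosome 11 have no other protein-coding gene between them. The same holds for Selenow (-0.75 ± 0.15) and Nop53 (-0.65 ± 0.24) on chromosome 7. Tfdp1 (0.95 ± 0.11) and Gas6 (-0.69 ± 0.18) on chromosome 8 went in opposite directions. Which segments AcB55 carries from C57BL/6 was not used here.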

How the data were processed

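RNA of AcB55 and A/J spleen was labelled with Cy3 or Cy5 and hybridised together on cDNA arrays, per the labels' protocols, which name a ScanArray scanner, QuantArray 3.0 and GeneSpring. The labels end in mid-sentence at a dye swap, and how the ratios were normalized is not given there. The authors' deposited table holds log2 ratios (base assumed), with array medians near 0, and they were used as deposited. Of the probes, 7849 had 1 gene symbol in the platform annotation, 356 several and 6407 none; identifiers of 7830 were found in RefSeq and 0 symbols changed. Probes of a symbol were averaged per array. R 4.3.3 with limma 3.58.1 (lmFit, eBayes) tested the mean of the 6 AcB55 arrays against 0, two-sided, with Benjamini-Hochberg adjustment over 13045 features and a threshold of 0.05. AcB61 minus AcB55 was tested in 1 fit over all 14 arrays. The fit was checked on simulated data. Array number limits precision, and signal intensities were not used here.

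The members and lists were chosen with earlier results of these data known. The named genes were the 15 highest and 15 lowest past the threshold with 1 sign on at least 5 arrays, up to 5 per list, the measured markers, and Xist, Hmox1, Tfrc, Alas2, Hbb-b1, Hba-a1, Vnn3, Vnn1 and Pklr. This gave 180 genes, and 73 others were named after their values were seen. Among the latter are genes that did not pass, the members of complexes given in full, and the neighbours of changed genes. Some lists were filled by name patterns and also catch unrelated genes such as Psmc3ip and Katna1. Vnn1, Vnn3 and Hbb-b1 had no tested feature of their own. Lists are described by counts and medians, without a set test. Promoters came from RefSeq, matched by symbol for 5140 of 6286 genes. Summaries and plots were made with matplotlib 3.10.9, pandas 2.3.3 and numpy 2.4.6 under Python 3.11.15. Alternatives were another fit over both strains, array weights, robust eBayes, centring, other minimum numbers of arrays and the median of probes. A block over the leading digits of title numbers, a 1.5-fold limit, and arrays left out were further alternatives.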

Additional observations from a re-analysis of the deposited data

Results flagged for a closer look

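Among the 253 named genes, 15 had an array set apart from the rest by a gap above Dixon's critical value, as did 1 of 38 list means. Chance sets an array apart in about 1 in 20 groups. Replicate 2 was the array in 6 of the genes that follow first. Rpl38 read -0.15 on replicate 2 and -0.98 to -0.68 on the other arrays. Rps13 read -0.35 on replicate 2 and -0.79 to -0.65 on the other arrays, and Rps29 read -0.11 on replicate 2 and -0.78 to -0.66 on the other arrays. Ndufa7 read -0.012 on replicate 2 and -0.58 to -0.39 on the other arrays. Atp6v1c1 read -0.16 on replicate 2 and -0.78 to -0.57 on the other arrays. Arpc5l read -0.50 on replicate 2 and -0.76 to -0.68 on the other arrays. For these 6 genes replicate 2 was closest to A/J. Nfkbiz read -0.55 on replicate 2 and -0.31 to -0.20 on the other arrays, so there replicate 2 was the lowest. On replicate 6, Pgk1 read -0.57 and -0.23 to -0.068 on the other arrays, Dnajb4 read 0.14 and 0.43 to 0.60 on the other arrays, and Chd3 read -1.36 and -0.76 to -0.45 on the other arrays. The list mean of endoplasmic reticulum folding was -0.30 on replicate 6 against -0.17 to -0.12. Fcgr1 read 0.29 on replicate 3 and -0.12 to -0.0087 on the other arrays, Kif20a read 0.56 on replicate 3 and -0.029 to 0.054 on the other arrays, and Rfc5 read 0.085 on replicate 3 and -0.23 to -0.13 on the other arrays. Ermap read -0.48 on replicate 1 and -0.22 to -0.15 on the other arrays, and Cat read 0.60 on replicate 5 and 0.84 to 0.88 on the other arrays.

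The strains differed for 71 of the 253 genes, by the test of AcB61 minus AcB55 (limma, adjusted over all features), 45 higher and 26 lower in AcB61. Over all 6286 tested genes with a name, 655 differed (10.4 percent). Many of the 253 were chosen for large AcB55 means or after their values were seen, which can raise their count. Values are log2 differences. Higher in AcB61 were Cpt2 (1.36), Nemp1 (1.19), Lhpp (1.04), Hbb-y (0.85), Cks1b (0.73), Rpl38 (0.65), Tns3 (0.63), Il16 (0.61) and Tmed9 (0.61). A spot of Hbb-y lay within 0.002 of the shared alpha globin value on 4 AcB55 arrays, so its difference carries the limit given for such spots. Next came Rpl36 (0.57), Col3a1 (0.57), Bst2 (0.52), Xbp1 (0.52), Dgka (0.51), Alas2 (0.51), Gas6 (0.51), Rps29 (0.51) and Atp6v1c1 (0.50). Then followed Blnk (0.49), Rps20 (0.46), Rps13 (0.46), Slc50a1 (0.43), Fbxo11 (0.43), Eif3k (0.42), Eif3f (0.42), Arpc1b (0.40) and Tmem14c (0.39). Smaller positive differences were those of Il18 (0.38), Alas1 (0.38), Gmnn (0.37), Ndufa7 (0.36), Rbm22 (0.34), Bnip1 (0.34), Dnajb9 (0.34), Cox7a2l (0.33) and Eif3h (0.33). The smallest positive differences were those of Arpc5l (0.32), Wars (0.30), Ndufv3 (0.29), Mmp23 (0.29), Mdh1 (0.27), Stat2 (0.27), Nfkbiz (0.26), Usp33 (0.26) and Ermap (0.25). Lower in AcB61 were Prex2 (-1.26), Xist (-1.22), Mki67 (-1.01), Irak1 (-0.96), Mrps25 (-0.92), Slc4a2 (-0.91), Igtp (-0.81) and Hmox1 (-0.79). Less far below AcB55 were Bcl2l1 (-0.76), H2-K1 (-0.70), Ndufaf3 (-0.69), Slc7a6 (-0.65), Dnajb4 (-0.60), Rab6a (-0.54), Nxpe2 (-0.53), Ube2h (-0.49) and Cat (-0.48). The smallest negative differences were those of Hadha (-0.46), Tfdp1 (-0.43), Mcm3 (-0.41), Rfc4 (-0.39), Cltc (-0.36), H2-DMa (-0.33), Smc4 (-0.30), Hspa8 (-0.28) and Cs (-0.26).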

How the results depend on the processing

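In AcB55, 1310 features were higher and 1549 lower than in A/J, and leaving out each array in turn gave 1000 to 1272 and 1176 to 1497. A 1.5-fold limit left 185 and 143. For AcB61 minus AcB55 the counts of 690 higher and 911 lower became 1299 and 1527 with array weights, and 333 to 774 and 521 to 1051 with an array left out. The cause was not tested. Signs were compared for the 253 genes described by name, and turned for genes that did not pass and lay near 0. With a single array left out, the means of Fcgr1 (-0.062 to 0.040), Selp (-0.022 to 0.023), Hba-a1 (-0.055 to 0.028), Alas1 (-0.012 to 0.071), Ftl1 (-0.013 to 0.050), Gpx1 (-0.020 to 0.055), Gpx4 (-0.10 to 0.049) and Tyro3 (-0.017 to 0.063) ran across 0. Without replicates 3 and 4, whose titles end in b, turned means were those of Fcgr1 (-0.043), Hba-a1 (0.035), Xist (-0.0022), Gpx4 (0.083) and Sod1 (0.0078). A random block over the leading digits of the title numbers turned Selp (-6.68e-05). Without replicates 1 and 2, turned means were those of Selp (-0.0015), Hbb-y (-0.031), Alas1 (-0.033), Ftl1 (-0.019), Gpx1 (-0.029), Kif11 (-0.018), Tap2 (0.0016) and Tyro3 (-0.0027). Of these 253 genes, none that passed turned its sign under these alternatives. Small list counts moved with 1 array: 4 lower mitochondrial ribosomal proteins became 2 without replicate 1 or 6, 3 lower glycolysis genes became 1 without replicate 5, and 7 lower solute carriers became 4 without replicate 4. No paired analysis was possible because the replicate numbers only give the order of deposit. The random block grouped arrays by the leading digits of their title numbers, shared by replicates 2, 3 and 4 and by replicates 5 and 6. Its correlation was 0.0739.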

Other observations

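Xist, the noncoding RNA of X inactivation, had a mean of 0.019 ± 0.057 in AcB55, reading -0.075, 0.031 and 0.081, and -1.20 ± 0.38 in AcB61 (difference -1.22, adjusted p = 7.16e-05 by limma). The sex of the mice is not stated. Ppbp of platelets (-0.32 ± 0.55) and Selp (0.0023 ± 0.10) did not pass in AcB55, and Hdc (-0.022 ± 0.054), which makes histamine, did not pass either. Component 3 of the deviations among AcB55 arrays held 18.6 percent of their variance and set replicates 3 and 4, whose titles end in b, against the other 4.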
